A study of Mus musculus with 6 samples.

Results

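The genes described here are 10 parts of the switch that takes a T cell from G1 into S phase: the cyclins Ccnd2, Ccnd3, Ccne1 and Ccne2, the cyclin-dependent kinases Cdk2, Cdk4 and Cdk6, and the kinase inhibitors Cdkn1b, Cdkn2c and Cdkn2d. They were chosen as named members of this switch, and all 10 were found among the 56941 genes of the count table. RNA was sequenced from 6 samples of mouse spleen T cells labelled CD8+, 3 treated with S1P and 3 with vehicle. Naive CD8+ T cells purified from splenocytes of B6 mice were the labelled starting material, and every culture was kept for 3 days with IL-2 on plates coated with antibodies against CD3 and CD28. After 24 h, S1P (sphingosine 1-phosphate, a signaling lipid whose main receptor in T cells is S1PR1) was added at 5 µM to one group and vehicle to the other. For its T cell cultures in general, the methods of the study name purified naive T cells or total splenocytes.

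In G1, D-type cyclins bind Cdk4 or Cdk6 and begin to phosphorylate the retinoblastoma protein, which releases E2F transcription factors. E2F in turn drives the E-type cyclins, which activate Cdk2 and commit the cell to replicate its DNA. INK4 proteins, among them p18 (Cdkn2c) and p19 (Cdkn2d), bind Cdk4 and Cdk6, while p27 (Cdkn1b) binds the cyclin-kinase complexes and inhibits cyclin E-Cdk2. In resting T cells p27 is abundant, and stimulation through the T cell receptor and IL-2 lowers it, induces Ccnd2 and Ccnd3 and lets the cells divide.

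The deepest and the shallowest library both belonged to the S1P group, with 17384084 and 12048880 counts, and vehicle-treated libraries held 13636095 to 17089831. S1P-treated replicate 2 stood apart, with 7.80% of its counts on mitochondrially encoded genes against 4.10% to 4.93% in the other 5 samples. The log2 fold change of each of the 10 genes is therefore also given without this library. More genes had counts in every S1P-treated library (24153 to 27224) than in any vehicle-treated library (22566 to 23288). The part of this difference in the changes described below was not tested. The markers went against a pure CD8+ culture. Cd4 was at a normalized count of 2998 ± 271 in vehicle-treated and 3220 ± 465 in S1P-treated samples (SD, n = 3 each), beside 3271 ± 367 and 2056 ± 97.1 for Cd8a. Sums of markers are given in CPM (counts per 1000000 counts of the library size scaled by TMM factors). The 8 B cell markers, all detected, summed to 1165 to 1415 CPM in vehicle-treated and 1200 to 1322 CPM in S1P-treated samples. The 8 T cell markers summed to 1681 to 1836 CPM and 1518 to 1683 CPM. Of the 8 myeloid markers S100a8 and S100a9 were at 0 in all samples and the sums stayed at or below 5.70 CPM. The 5 NK cell markers summed to 85.3 to 105 CPM and 61.6 to 73.3 CPM, mostly Eomes, which activated CD8+ T cells also express and which fell with S1P (log2 fold change -0.86, edgeR adjusted p = 0.000162). With S1P, Cd8a and Cd8b1 fell (log2 fold changes of -0.67 and -0.55, edgeR adjusted p = 0.000243 and 0.00767). Of the other 6 T cell markers, Cd3d (-0.28, edgeR adjusted p = 0.0129) and Cd3g (-0.21, edgeR adjusted p = 0.0444) passed the adjusted p with changes under 0.3 in size, and Cd3e (0.15), Cd4 (0.10), Trac (-0.08) and Lck (-0.04) did not pass. Among B cell markers Ms4a1 and Cd22 fell (-0.39 and -0.44, edgeR adjusted p = 0.00889 and 0.00642), and the other 6 did not pass. The part of these shifts in the changes described next was not tested. In bulk RNA, fewer cells of a type and less of a transcript per cell cannot be told apart.

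Counts were scaled to library size with TMM factors, which gave the normalized counts, and both groups were tested against each other over 13299 genes with the quasi-likelihood test of edgeR. A gene was called when the Benjamini-Hochberg adjusted p was at most 0.05 and the log2 fold change at least 0.3 in size. Of the 10 genes, Cdkn1b and Cdkn2d rose, Ccne1 fell and 7 were not called. That is 30.0% called, where 23.1% of all tested genes were called (12.7% higher and 10.4% lower), so the number called is close to the background and the result lies in which genes moved and by how much. The median log2 fold change of the 10 genes was 0.02, against 0.01 over all tested genes. With the adjusted p alone 5 of the 10 passed, against 28.5% of all tested genes. For 7 of the 10 every S1P-treated sample lay on one side of every vehicle-treated sample, and this held for 45.6% of the tested genes.

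**Figure D1:**
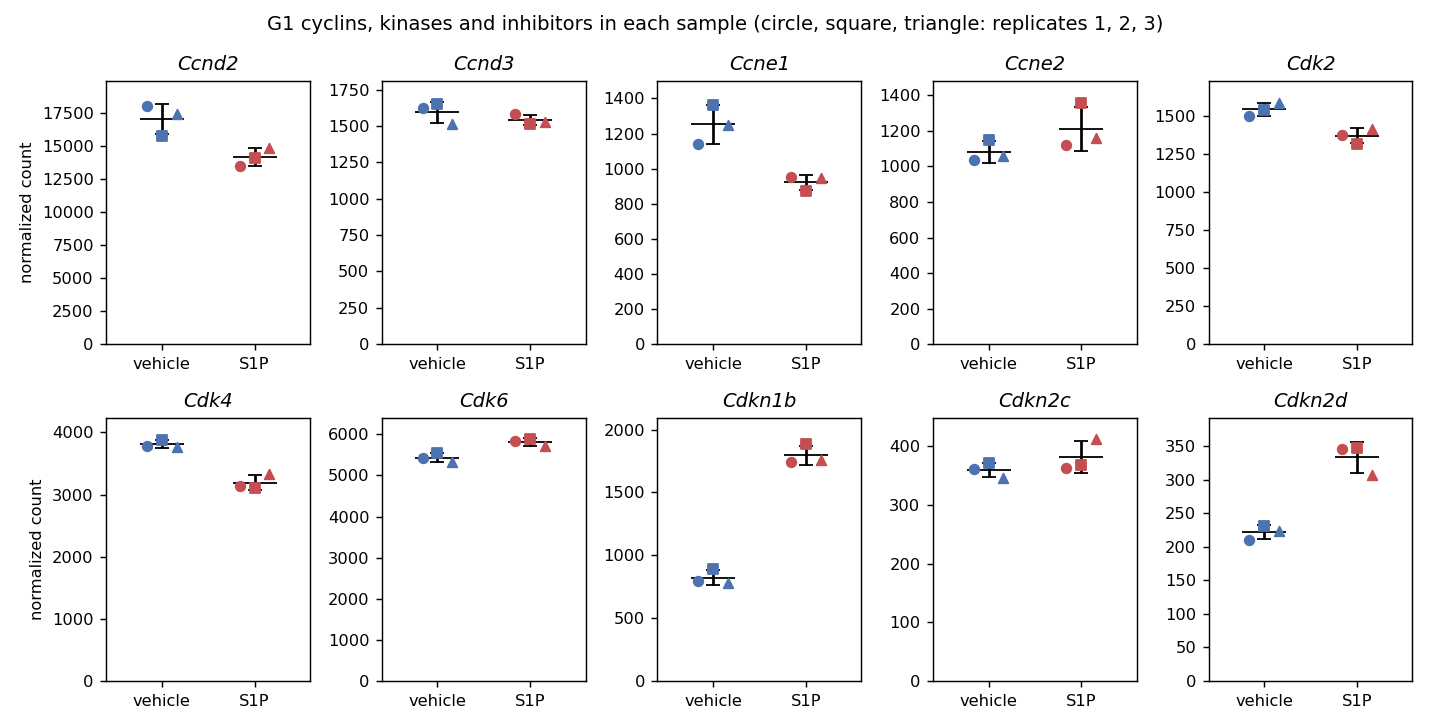
Normalized counts (vertical axes from 0) of the 10 genes in the 3 vehicle-treated (blue) and 3 S1P-treated (red) samples; each marker shape is 1 replicate number, and the black line with bars is the mean ± SD. Cdkn1b sits between 777 and 893 with vehicle and between 1743 and 1883 with S1P, the widest relative gap of the 10 panels.

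The largest change was in Cdkn1b, the gene of p27 (ENSMUSG00000003031, chromosome 6 from 134897364 to 134902476 of GRCm39, plus strand). With vehicle, replicates 1, 2 and 3 had normalized counts of 796, 893 and 777, and with S1P the values were 1743, 1883 and 1761. Every S1P-treated sample was thus far above every vehicle-treated sample, and the spread within each group was small beside the gap. The mean rose 2.18-fold, from 822 ± 62.2 to 1796 ± 76.2 (SD, n = 3 each), which is 1.13 on the log2 scale (standard error 0.07, 95% interval 0.96 to 1.29, edgeR adjusted p = 1.1e-05). By its p-value Cdkn1b ranked 5 among the 13299 tested genes. By the size of the rise 321 genes were ahead of it, of which 7 had a vehicle level at least as high. Without S1P-treated replicate 2 its log2 fold change was 1.10, with an edgeR adjusted p of 6.41e-07.

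Cdkn2d, the gene of p19 (ENSMUSG00000096472, chromosome 9 from 21199700 to 21202727, minus strand), was the other inhibitor that rose. Its normalized counts were 211, 231 and 223 in the vehicle-treated replicates and 346, 347 and 307 in the S1P-treated replicates. The lowest S1P-treated sample, replicate 3, was still above all vehicle-treated samples. The mean rose 1.5-fold, from 222 ± 10.4 to 333 ± 22.9 (SD, n = 3 each), or by 0.59 on the log2 scale (standard error 0.10, 95% interval 0.38 to 0.80, edgeR adjusted p = 0.00117). Leaving out S1P-treated replicate 2 gave 0.57 (edgeR adjusted p = 0.000851).

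Cdkn2c, the gene of p18 and the other INK4 inhibitor (ENSMUSG00000028551, chromosome 4 from 109517957 to 109524386, minus strand), did not pass. Normalized counts were 361, 371 and 346 with vehicle and 363, 369 and 412 with S1P, so that the groups overlapped. The log2 fold change was 0.08 with a 95% interval of -0.11 to 0.28 (edgeR adjusted p = 0.506), and a change the size of that of Cdkn2d lies outside this interval. Leaving out S1P-treated replicate 2 gave 0.11 (edgeR adjusted p = 0.410), and leaving out S1P-treated replicate 3 gave 0.02 (edgeR adjusted p = 0.909). The difference between both INK4 genes was followed as a log2 ratio within each sample. Cdkn2c stood above Cdkn2d by 0.77, 0.68 and 0.63 in vehicle-treated and by 0.07, 0.09 and 0.42 in S1P-treated samples (log2 ratio of counts, not per length). The ratio was lower in all 3 S1P-treated samples, by 0.50 on average (exact permutation test, two-sided, p = 0.1, which is the smallest p that 3 samples against 3 can give, and 0.133 adjusted over 4 pairs).

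**Figure D2:**
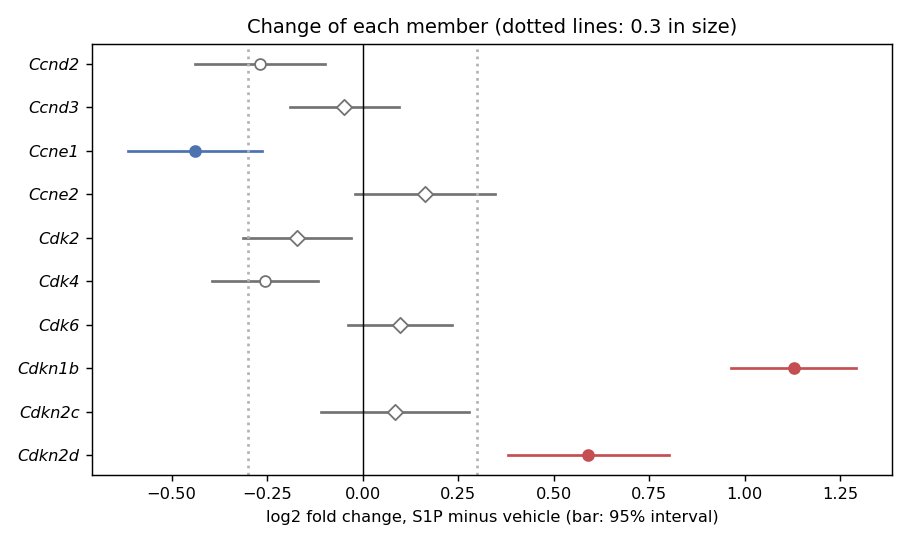
Log2 fold change of each gene (horizontal axis, S1P minus vehicle) with its 95% interval from edgeR; red and blue filled circles are called genes, open circles passed the adjusted p with a change under 0.3 in size, open diamonds did not pass. The intervals of Cdkn1b and Cdkn2d lie wholly above 0.3, while those of Ccnd3, Ccne2, Cdk6 and Cdkn2c include 0.

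The upstream sequences of the 2 inhibitors that rose are shown because both transcripts moved the same way. They are the 250 bases before the start of the canonical transcript in GENCODE vM39, read 5′ to 3′ on the strand of the gene, at chr6:134897114-134897363 for Cdkn1b and chr9:21202728-21202977 for Cdkn2d of GRCm39. Capitals mark matches, on either strand, to an E2F word (TTTCCCGC, TTTCGCGC, TTTGCCGC or TTTGGCGC), the forkhead word GTAAACA, the E-box CACGTG or the CCAAT box.
Cdkn1b: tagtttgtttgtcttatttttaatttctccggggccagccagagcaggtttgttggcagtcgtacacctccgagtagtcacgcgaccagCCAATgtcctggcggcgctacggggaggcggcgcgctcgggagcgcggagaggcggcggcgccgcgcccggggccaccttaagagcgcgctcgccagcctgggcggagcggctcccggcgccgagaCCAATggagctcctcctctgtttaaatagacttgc
Cdkn2d: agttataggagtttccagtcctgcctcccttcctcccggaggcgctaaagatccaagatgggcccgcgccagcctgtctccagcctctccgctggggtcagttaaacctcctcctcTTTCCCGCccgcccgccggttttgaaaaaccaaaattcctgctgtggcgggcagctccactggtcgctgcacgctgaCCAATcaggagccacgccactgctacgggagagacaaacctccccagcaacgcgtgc
The Cdkn1b window held 2 CCAAT boxes and none of the other words, and the Cdkn2d window held 1 CCAAT box and 1 E2F word. Of 21770 windows of the same length before protein-coding genes, 36.5% held a CCAAT box, 2.28% an E2F word, 6.26% the E-box and 2.72% the forkhead word. Among the 10 genes 3 held an E2F word (Ccnd3, Cdk2 and Cdkn2d), 3 a CCAAT box, 2 the E-box and none the forkhead word. Such matches describe letters in these windows and not binding. The windows precede the canonical start only, and for all of the 10 genes but Ccnd2 and Cdk4 they hold exon bases of another transcript or gene. In the Cdkn1b and Cdkn2d windows these belong to Gm67968 and Gm69763 on the opposite strand.

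Among the cyclins, Ccne1 fell, and it was the only one of the 10 genes that was called lower. Ccne1 encodes cyclin E1, the partner of Cdk2 (ENSMUSG00000002068, chromosome 7 from 37797404 to 37808264, minus strand). Its normalized counts were 1142, 1363 and 1250.0 in the vehicle-treated replicates and 949.6, 872 and 945 in the S1P-treated replicates. All S1P-treated samples lay below all vehicle-treated samples, and the vehicle-treated samples were the more scattered. The mean went from 1252 ± 111 to 922 ± 43.8 (SD, n = 3 each), 1.36-fold lower, and the log2 fold change was -0.44 (standard error 0.08, 95% interval -0.61 to -0.26, edgeR adjusted p = 0.00221). S1P-treated replicate 2 had the lowest value, and leaving it out gave -0.40 (edgeR adjusted p = 0.00148).

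Ccne2, the gene of cyclin E2 (ENSMUSG00000028212, chromosome 4 from 11190303 to 11204947, plus strand), did not follow. Its normalized counts were 1035, 1149 and 1060.4 with vehicle and 1121, 1354 and 1162 with S1P. The groups overlapped, and S1P-treated replicate 2 was the highest sample. The log2 fold change was 0.16 with a 95% interval of -0.02 to 0.35 (edgeR adjusted p = 0.169), and it was 0.08 without S1P-treated replicate 2 (edgeR adjusted p = 0.397). The log2 ratio of Ccne1 to Ccne2 counts was 0.14, 0.25 and 0.24 in vehicle-treated and -0.24, -0.63 and -0.30 in S1P-treated samples. Counts of Ccne1 exceeded those of Ccne2 in every vehicle-treated sample and were below them in every S1P-treated sample. The mean ratio fell by 0.60 on the log2 scale (exact permutation test, two-sided, p = 0.1, 0.133 adjusted over 4 pairs).

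The stretch before the canonical start of Ccne1 is shown beside those of the inhibitors, at chr7:37807074-37807287 of GRCm39 (minus strand, 214 bases, ending 37 bases before the canonical start because the bases after it are part of an exon in another transcript). It lies inside the annotated span of the gene, because other transcripts start further upstream.
Ccne1: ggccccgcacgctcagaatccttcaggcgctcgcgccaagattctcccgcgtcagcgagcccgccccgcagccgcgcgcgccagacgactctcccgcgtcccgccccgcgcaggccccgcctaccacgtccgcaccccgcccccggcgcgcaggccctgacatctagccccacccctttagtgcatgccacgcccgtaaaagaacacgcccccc
This stretch held none of the words searched, and the stretches before the other starts of Ccne1 were not searched.

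Neither of the D-type cyclins was called, but Ccnd2 was lower in every S1P-treated sample. Ccnd2, the cyclin induced by IL-2 and T cell receptor signals (ENSMUSG00000000184, chromosome 6 from 127102125 to 127129156, minus strand), had normalized counts of 17986, 15759 and 17395 with vehicle and 13512, 14117 and 14829 with S1P. The S1P-treated samples were all lower, with vehicle-treated replicate 2 nearest to them. Its log2 fold change of -0.27 (standard error 0.08, 95% interval -0.44 to -0.10) passed the adjusted p (edgeR, 0.0235) and missed the size of 0.3. It was called when vehicle-treated replicate 2 (-0.33, edgeR adjusted p = 0.0294) or S1P-treated replicate 3 (-0.31, edgeR adjusted p = 0.0333) was left out. It missed the adjusted p when vehicle-treated replicate 1 (-0.23, edgeR adjusted p = 0.112) or vehicle-treated replicate 3 (-0.26, edgeR adjusted p = 0.0934) was left out. Without S1P-treated replicate 2 it was -0.27 (edgeR adjusted p = 0.0105).

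Ccnd3, the D-type cyclin of lymphoid cells that is needed for thymocyte expansion (ENSMUSG00000034165, chromosome 17 from 47815767 to 47910624, plus strand), had normalized counts of 1623, 1649 and 1512 with vehicle and 1583, 1513 and 1529 with S1P, with overlapping groups. Its log2 fold change was -0.05 with a 95% interval of -0.19 to 0.10 (edgeR adjusted p = 0.621), which leaves out a change of 0.3 in either direction, and it was -0.03 when S1P-treated replicate 2 was left out (edgeR adjusted p = 0.727). The log2 ratio of Ccnd2 to Ccnd3 counts overlapped between the groups, with means of 3.42 and 3.20 (exact permutation test, two-sided, p = 0.2, 0.2 adjusted over 4 pairs).

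Of the kinases, Cdk4 (ENSMUSG00000006728, chromosome 10 from 126895180 to 126903789, plus strand), which acts with the D-type cyclins, had normalized counts of 3778, 3882 and 3769 with vehicle and 3140.1, 3110 and 3327 with S1P. The groups were well apart relative to their spread, with means of 3810 ± 63.1 and 3192 ± 118 (SD, n = 3 each). The log2 fold change of -0.26 (standard error 0.06, 95% interval -0.39 to -0.12, edgeR adjusted p = 0.0116) passed the adjusted p and missed the size of 0.3. Without vehicle-treated replicate 2 the adjusted p was 0.0536 (edgeR, log2 fold change -0.25), and leaving out S1P-treated replicate 2 gave -0.24 (edgeR adjusted p = 0.0059).

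Cdk6, the other kinase of the D-type cyclins (ENSMUSG00000040274, chromosome 5 from 3391485 to 3581008, plus strand), had normalized counts of 5433, 5541 and 5338 with vehicle and 5846, 5883 and 5717 with S1P. The S1P-treated samples were all slightly higher, by a log2 fold change of 0.10 (95% interval -0.04 to 0.23, edgeR adjusted p = 0.270) that did not pass, and by 0.09 when S1P-treated replicate 2 was left out (edgeR adjusted p = 0.226). The log2 ratio of Cdk4 to Cdk6 counts was -0.52, -0.51 and -0.50 in vehicle-treated and -0.90, -0.92 and -0.78 in S1P-treated samples. Cdk4 was thus lower relative to Cdk6 in all 3 S1P-treated samples, by 0.35 on the log2 scale, beside an SD of 0.01 and 0.07 within the groups (exact permutation test, two-sided, p = 0.1, 0.133 adjusted over 4 pairs). Cdk2, the kinase of the E-type cyclins (ENSMUSG00000025358, chromosome 10 from 128533796 to 128540963, minus strand), had normalized counts of 1505, 1540 and 1590 with vehicle and 1378, 1319 and 1416 with S1P. All S1P-treated samples were lower, but the log2 fold change of -0.17 (95% interval -0.31 to -0.03) did not pass (edgeR adjusted p = 0.0666), and neither did the -0.14 found when S1P-treated replicate 2 was left out (edgeR adjusted p = 0.0771).

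The window before the canonical start of Cdk4, which lies inside the annotated span of the gene because other transcripts start further upstream, held the E-box 3 times. It is shown for that count, so the choice followed the match. The 100 bases that carry all 3 are at chr10:126899225-126899324 of GRCm39 (plus strand), with the E-boxes in capitals.
Cdk4: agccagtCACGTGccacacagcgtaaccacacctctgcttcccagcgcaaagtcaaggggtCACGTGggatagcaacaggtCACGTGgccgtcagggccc
The E-box is the word that MYC with its partner MAX, and other proteins of that family, can bind. The window before Cdk6 held it once. Myc itself did not pass (log2 fold change 0.14, edgeR adjusted p = 0.120). Its normalized counts were 5426 to 5699 with S1P and 4849 to 5151 with vehicle, so the groups were apart, as in 45.6% of the tested genes. Any part of MYC in the level of Cdk4 was not tested.

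To compare levels between genes, CPM were divided by the kilobases (kb) of merged exons of each gene. In vehicle-treated samples Ccnd2 was highest at 123 ± 8.32 CPM per kb (SD, n = 3), above 98.4% of the tested genes, followed by Cdk4 at 75.1 ± 1.24 and Cdk6 at 25.6 ± 0.477. Ccne1 (23.4 ± 2.07) overlapped with Cdk6. Cdk2 came next (16.6 ± 0.461), and Ccne2 (13.1 ± 0.724), Cdkn1b (12.3 ± 0.926) and Ccnd3 (11.7 ± 0.531) followed, with overlap between neighbours. Cdkn2d (9.05 ± 0.423) and Cdkn2c (3.83 ± 0.134) were lowest. With S1P the main move in this order was that of Cdkn1b, from rank 7 to rank 4 at 26.8 ± 1.14 CPM per kb, where it overlapped with Cdk6 (27.4 ± 0.411) and stood above Ccne1 (17.3 ± 0.819). The order depends on the length used. With the longest protein-coding transcript, Ccnd3 moved from rank 8 to rank 3 in vehicle-treated samples (42.8 CPM per kb), because its merged exons span 9245 bases and that transcript 2528, and Cdkn1b moved from rank 8 with vehicle to rank 7 with S1P.

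Within families, the shares of single genes in the transcript pool did not overlap between the groups for E cyclins, D-cyclin kinases and inhibitors. The shares themselves were not tested. The log2 ratios of Ccne1 to Ccne2, Cdk4 to Cdk6 and Cdkn2c to Cdkn2d did not pass (exact permutation test, p = 0.1 each, the smallest possible, and 0.133 adjusted over 4 pairs). Ccne1 made up 63.1% to 64.8% of the E cyclin level per kb in vehicle-treated samples and 49.95% to 56.8% in S1P-treated samples. Cdk4 made up 74.5% to 74.75% of the summed level of Cdk4 and Cdk6 with vehicle and 68.9% to 70.9% with S1P. Cdkn1b made up 47.5% to 49.8% of the 3 inhibitors with vehicle and 59.1% to 60.8% with S1P. Cdkn1a, the gene of another kinase inhibitor, also rose (576 to 1202 normalized counts, log2 fold change 1.06). It was not in this pool, so the share of Cdkn1b holds for these 3 genes only. The share of Ccnd2 among the D cyclins, 90.4% to 91.9% with vehicle and 89.3% to 90.5% with S1P, overlapped between the groups. With the length of the longest protein-coding transcript the shares were other values (74.3% and 65.6% on average for Ccne1). The same 3 families were apart with that length. For single genes, the groups were apart in 45.6% of all tested genes.

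**Figure D3:**
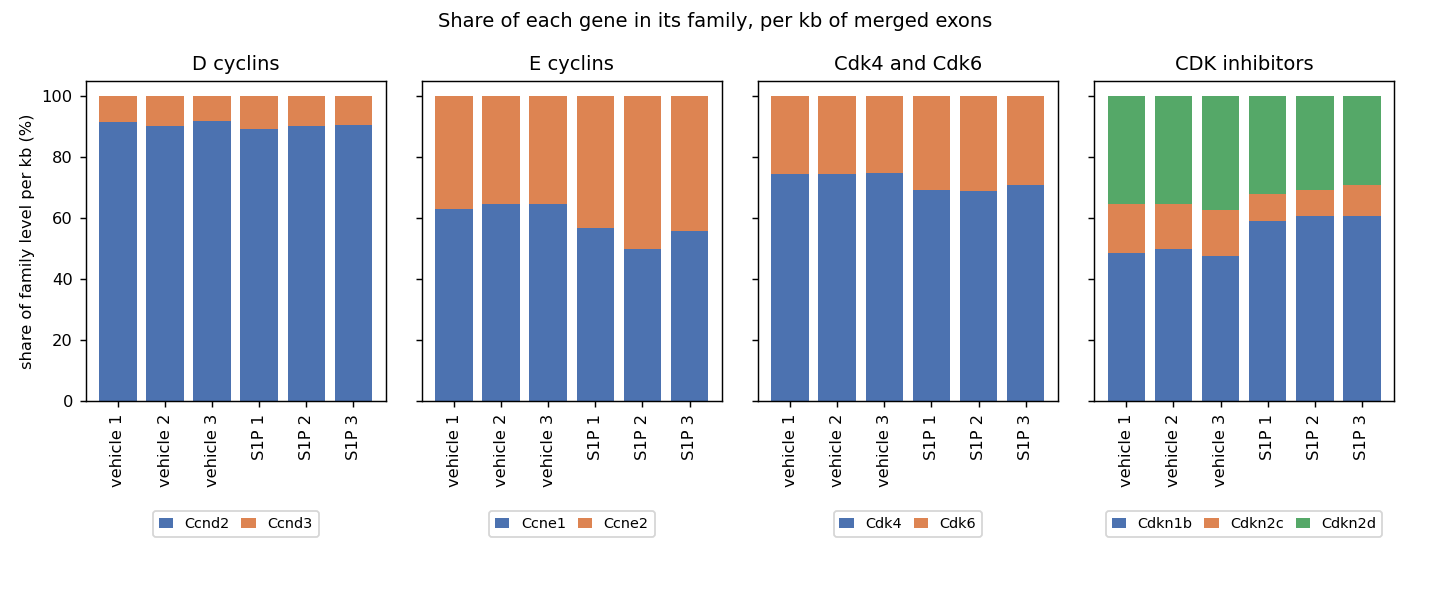
Share of each gene in the summed level per kb of its family (vertical axis, percent) in each of the 6 samples, from merged exon lengths. The Ccne1 bar shrinks from 63.1% to 64.8% with vehicle to 49.95% to 56.8% with S1P, and the Cdkn1b bar grows from 47.5% to 49.8% to 59.1% to 60.8%. The inhibitor family holds Cdkn1b, Cdkn2c and Cdkn2d only, without Cdkn1a.

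Levels of inhibitors were also set against those of the proteins' known partners, a summary that was chosen after the values of single genes were seen and is given as a description. The ratio of Cdkn1b to Cdk2 per kb was 0.734, 0.805 and 0.678 in vehicle-treated and 1.755, 1.98 and 1.725 in S1P-treated samples. Cdkn1b was below Cdk2 in every vehicle-treated and above it in every S1P-treated sample, although with the longest protein-coding transcript the mean ratio stayed under 1 in both groups (0.291 and 0.718). Against the summed E cyclins, Cdkn1b went from a mean ratio of 0.336 to 0.839. The summed INK4 genes went from 0.128 to 0.196 of the summed Cdk4 and Cdk6. Ratios of cyclins to kinases overlapped between the groups, at 1.34 ± 0.0998 and 1.25 ± 0.0312 for D cyclins over Cdk4 and Cdk6, and 2.20 ± 0.159 and 2.17 ± 0.119 for E cyclins over Cdk2 (SD, n = 3 each). Transcript ratios say nothing of protein, and p27 in particular is known to be set largely by protein turnover.

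**Figure D4:**
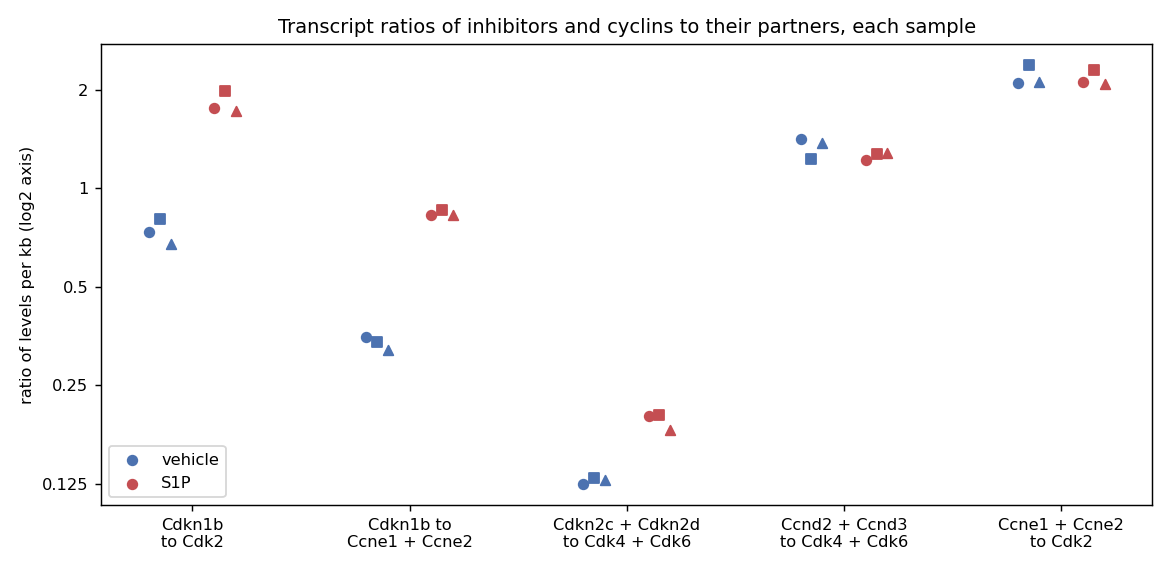
Ratios of levels per kb of merged exons (vertical axis, log2 scale) in each sample, vehicle in blue and S1P in red, with 1 marker shape per replicate number. The 3 ratios with an inhibitor on top are apart, such as Cdkn1b to Cdk2 at 0.678 to 0.805 against 1.725 to 1.98, while both cyclin-to-kinase ratios overlap.

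The other genes of the pathway were taken from 4 lists. Of 6 further G1 cyclin and inhibitor genes, 4 (Ccnd1, Cdkn1c, Cdkn2a and Cdkn2b) had too few counts for a test, with mean normalized counts of at most 11. Cdkn1a, the gene of p21 and the closest relative of Cdkn1b in the test, rose from 576 to 1202 normalized counts, by 1.06 on the log2 scale (standard error 0.09, edgeR adjusted p = 3.65e-05), and Cdkn3 did not pass (0.11, edgeR adjusted p = 0.559). Of this list 1 of 2 tested genes was thus called, a number too small to set against the 23.1% called over all tested genes (12.7% higher).

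Of 20 genes of Rb, E2F factors and the DREAM complex, which represses cell cycle genes in G1, 0 were called higher and 3 lower (15.0% called, against 23.1% of all tested genes in either direction and 10.4% lower). The 3 were E2f6, a repressive E2F (-0.38), Tfdp1, the common dimer partner of E2F factors (-0.36, from 5866 to 4576 normalized counts), and Rbbp4, a histone-binding subunit (-0.33), with edgeR adjusted p of 0.00474, 0.00171 and 0.0153. Another 4 passed the adjusted p with smaller changes: Rb1 (0.30 after rounding, just under the threshold), Rbl2 (0.27) and Lin54 (0.27) with higher and E2f3 (-0.27) with lower levels. The median log2 fold change of the list was 0.06. The split depended on single libraries and on the scaling and filter, with 3 higher and 2 lower when vehicle-treated replicate 1 was left out, and 2 higher and 4 lower when S1P-treated replicate 3 was left out. With upper quartile factors, or with at least 10 counts required in every sample, it was 1 higher and 3 lower.

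A further list, called activation and turnover below, held 20 genes that regulate G1 kinases, cyclins and inhibitors by activation, inhibition, turnover or transcription. Of these, 0 were called higher and 3 lower (15.0%, against the same 23.1% in either direction and 10.4% lower). Wee1, the kinase that inhibits Cdk1 and Cdk2, fell (log2 fold change -0.49, edgeR adjusted p = 0.00213). So did Skp1, a core subunit of the SCF ubiquitin ligases that degrade cyclin E and p27 (-0.38, edgeR adjusted p = 0.00517), and Cdk7, the kinase that activates other CDKs (-0.31, edgeR adjusted p = 0.0153). The change of Cdk7 was just over the threshold in size. Skp2, the SCF subunit that recognizes p27, did not pass (-0.19, edgeR adjusted p = 0.135), and Cks1b, its cofactor, passed the adjusted p with a change of -0.23. Foxo1, a transcription factor known to activate Cdkn1b, passed the adjusted p with a change of 0.27 (edgeR adjusted p = 0.0123), and Foxo3 did not pass (0.17, edgeR adjusted p = 0.117). The other genes that passed the adjusted p alone were Cdc25a, the phosphatase that activates Cdk2 (-0.30 after rounding, just under the threshold in size, edgeR adjusted p = 0.00527), and Gsk3b, a kinase that marks D-type cyclins for degradation (0.19, edgeR adjusted p = 0.0486). When S1P-treated replicate 1 was left out 1 gene was called higher and 2 lower, and when vehicle-treated replicate 3 was left out 2 were called, both lower.

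Of 24 E2F target genes of S-phase entry, 0 were called higher and 3 lower (12.5%, against 23.1% of all tested genes in either direction and 10.4% lower). Mcm2 (-0.38) and Mcm5 (-0.35), subunits of the replicative helicase, and Tyms, thymidylate synthase (-0.30), fell with edgeR adjusted p of 0.00202, 0.00246 and 0.00426. The change of Tyms was just over the threshold in size. Estimates were below 0 for 23 of the 24 genes, with a median log2 fold change of -0.15 against 0.01 over all tested genes, but 21 were not called. Of these, Pcna, the sliding clamp of DNA polymerases (-0.30 after rounding, just under the threshold in size, edgeR adjusted p = 0.0148), and Rrm2, a subunit of ribonucleotide reductase (-0.23, edgeR adjusted p = 0.0269), passed the adjusted p alone. When S1P-treated replicate 1 was left out 5 were called, all lower, of which 2 were among the 3 named here.

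**Figure D5:**
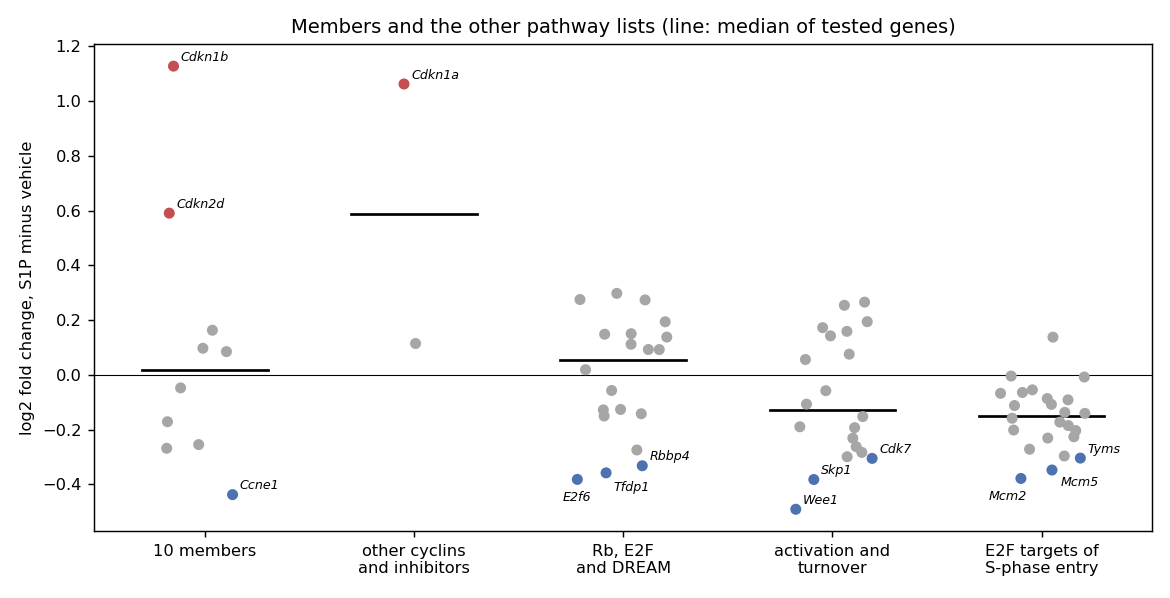
Log2 fold change (vertical axis, S1P minus vehicle) of the 10 genes and of the tested genes of 4 other lists; red and blue points are called genes, named beside the point, grey points are not called, and the line is the median of the list. Cdkn1b at 1.13 and Cdkn1a at 1.06 stand above all other points, and the E2F targets gather just below 0 around a median of -0.15.

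Some counts could be shared with other genes. The canonical transcript of Ccnd3 shared 14.8% of its 31-base stretches with other genes, mostly the pseudogene Ccnd3-ps, Cdk6 shared 3.85% and Cdk4 3.36%, and the other 7 at most 0.0885%. Exons of all 10 genes overlap annotated genes of the opposite strand, over 18.8% of exon bases for Cdk4 (Tspan31), 15.8% for Ccnd2, 15.2% for Ccne2 (Ints8) and at most 7.74% for the others. The libraries keep strand, but the strand setting of the counting is not given in the sources used here. The overlapping gene of Cdkn1b that was counted, Gm44238, had at most 1 count in any sample, against at least 820 for Cdkn1b. The one of Ccne1, 1600014C10Rik, overlaps 1.93% of its exon bases and was called higher (log2 fold change 0.60), opposite to Ccne1. Bysl, which overlaps Ccnd3, fell (-0.55, edgeR adjusted p = 0.00814).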

How the data were processed

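RNA of 3 vehicle-treated and 3 S1P-treated samples was compared. Per the labels and the methods of the study, the authors selected polyadenylated RNA for strand-specific libraries, trimmed paired reads (Trim Galore), aligned them to GRCm39 (STAR) and obtained counts per gene from featureCounts; versions and the annotation release are not given in the sources used here. The deposited values are these raw counts, whole numbers without normalization, with 12048880 to 17384084 per sample. Symbols, positions and lengths came from GENCODE vM39 (GRCm39), which holds 56323 of the 56941 identifiers. The files give no build of their own.

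edgeR 4.0.16 (R 4.3.3) was used with filterByExpr, TMM factors, no term besides treatment and adjustment by Benjamini-Hochberg over 13299 genes. Normalized counts are counts scaled to the mean effective library size. Thresholds (adjusted p 0.05, log2 fold change 0.3) are those of the study, which used DESeq2. Log2 ratios used a prior count of 2 and an exact permutation test over samples. Alternatives were DESeq2 1.42.0, limma-voom (limma 3.58.1), other factors, filters and thresholds, a replicate block and leaving out each library. In data simulated from these samples, edgeR recovered 106 of 145 changed genes (0.5 or more on the log2 scale) among 13047 tested, and called 12 of the genes that were not changed. The simulation changed far fewer genes than were called here and gave both groups the same spread. These counts therefore do not carry over to the real data. All 10 members and every called gene of the pathway lists were named; Myc, Skp2, Foxo3 and the genes that passed the adjusted p alone were chosen after their values were seen. The members and lists were chosen with earlier results of these data known. Samples are labelled biological replicates; whether they came from separate mice is not given, so p-values measure the spread between these samples. No duplicates were found among samples of the same group, with a chi-square per gene of at least 3.77 for every pair. It was 31.4 and 17.8 for S1P-treated replicate 2 with S1P-treated replicates 1 and 3, and at most 5.97 for the other pairs. The members had at least 214 counts in every sample. One marker list is not reported here.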

Additional observations from a re-analysis of the deposited data

How the results depend on the processing

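In the 14 alternative fits at the same thresholds, Cdkn1b (log2 fold change 1.09 to 1.19), Cdkn2d (0.55 to 0.64) and Ccne1 (-0.50 to -0.38) were called in every one, and no gene of the 10 changed direction. Ccnd2 gained a call in 2 fits, when vehicle-treated replicate 2 (-0.33) or S1P-treated replicate 3 (-0.31) was left out. With the adjusted p alone, 5 of the 10 members, 7 genes of the Rb, E2F and DREAM list, 7 of activation and turnover and 5 E2F targets passed. With a log2 fold change of at least 0.58, 1276 genes were called in all, 2 members remained called (Cdkn1b and Cdkn2d) and 0 genes of each of these 3 lists. With each library left out in turn, 3 to 4 members, 2 to 6 genes of the Rb, E2F and DREAM list, 2 to 4 of activation and turnover and 2 to 5 E2F targets were called, and 2119 to 3228 genes in all. The Rb, E2F and DREAM list had 6 calls without S1P-treated replicate 3, of which 2 were higher, and 5 without vehicle-treated replicate 1, of which 3 were higher, where the reported fit called 0 higher. The E2F targets had 5 calls, 0 of them higher, without S1P-treated replicate 1; the cause was not tested. Deviations from the group means correlated at 0.12, -0.00598 and 0.0483 for equal replicate numbers and at -0.1 to 0.0496 for unequal numbers. So few values showed no clear pairing by replicate number and cannot exclude one. With the replicate block 3120 genes and the same 3 members were called, and the log2 ratios, whose values the block cannot change with equal groups, had p = 0.25 (exact sign-flip test, the smallest possible). Log2 ratios without 1 library ranged from -0.30 to -0.17 for Ccnd2 to Ccnd3, -0.67 to -0.48 for Ccne1 to Ccne2, -0.39 to -0.33 for Cdk4 to Cdk6 and -0.61 to -0.44 for Cdkn2c to Cdkn2d. With upper quartile factors 2 of the 3 named E2F targets and 2 of the 3 named genes of activation and turnover were called. With the other scalings, filters at the same thresholds and tools, 3 to 4 genes of each of these 3 lists were called. Other scalings moved the median of all genes to between -0.01 and 0.04.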

Other observations

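The tested genes whose log2 CPM over the 6 samples were most like those of Cdkn1b were Fdft1, an enzyme of cholesterol synthesis (Pearson r = 0.9994), Mier1 (0.9993), Letm2 (0.9989), Bnip3l-ps (0.9978) and Map3k13 (0.9977). Those most like Ccne1 were Rpn1, a subunit of the oligosaccharyltransferase (0.9975), Ccnb2, the mitotic cyclin B2 (0.9948), Orai2 (0.9932), Il18rap (0.993) and Hdac6 (0.993). These values describe 6 samples in 2 groups, so genes that differ between the groups can score high, and 1345 of 13298 other genes had r over 0.9 with Cdkn1b and 923 with Ccne1.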
